A study of Caenorhabditis elegans with 8 samples.

Results

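The dhs genes of Caenorhabditis elegans encode short-chain dehydrogenases. Members were all genes whose symbol is dhs followed by a number, with dhs-28 left out, and 29 genes of the 46928 gene rows met this rule. All 29 are protein-coding genes, with coding lengths of 732 to 1281 bp. Of these, 25 had enough reads in enough libraries to pass the low-count filter and be tested for a difference between genotypes. The other 4 (dhs-7, dhs-16, dhs-23 and dhs-26) did not pass it.

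Short-chain dehydrogenases are a large, ancient enzyme family built on one nucleotide-binding fold. They move hydride between NAD(H) or NADP(H) and alcohols, ketones or aldehydes, and their substrates include steroids, fatty acyl chains, retinoids, sugars and reactive carbonyls. In the worm, individual members are known for work on lipid droplets, on sterol hormones and on sugar metabolism, and most others have no assigned substrate.

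The libraries came from cells sorted from synchronised L4 animals of 2 genotypes, skn-1gf (4 libraries) and wild type N2 (4 libraries), all carrying the ASI neuron reporter daf-7p::gfp. In skn-1gf animals a gain-of-function allele of skn-1, the gene of a transcription factor for detoxification and stress defence genes, is present in every cell and not in ASI neurons alone. The series title sets this mutation in the context of ASI neurons and a dicer-related helicase. The titles number the libraries as biological replicates without saying where each came from, so the p-values below measure the spread between these libraries.

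Total gene counts were 9680840, 6521589, 3622318 and 2976889 in skn-1gf replicates 1 to 4, against 7927544, 9652874, 5475892 and 10740970 in wild-type replicates 1 to 4. The labelled cell type was checked against its markers. The 8 ASI markers together held between 0.00135 and 0.0206% of protein-coding counts, and ins-6, gpa-4, str-2 and ins-26 had 0 counts in wild-type replicate 2. For str-2 this was not particular to that library, since its only counts were 3 in skn-1gf replicate 4. The marker str-3 went the other way, with 39 counts (6.16 CPM) in wild-type replicate 2 and none elsewhere. With daf-28 (16.8 CPM), str-3 made up most of the ASI sum of that library. The 8 markers summed to 102, 10.8, 178 and 52.0 CPM (counts scaled as given below) in skn-1gf replicates 1 to 4, against 23.8, 25.1, 21.7 and 11.6 CPM in wild-type replicates 1 to 4. All 5 that could be tested had a positive log2 fold change, with a median of 2.15, none passed the adjusted edgeR test, and 2 (daf-28 and ins-6) had an unadjusted p under 0.05. Counts of ins-6 were 69, 6, 64 and 10 in skn-1gf, against 20, 0, 8 and 9 in wild type. It passed the low-count filter in part through skn-1gf libraries, where it was high, so its place among the positive markers is partly set by the filter. The level of ASI markers thus differed between libraries, and its part in the values of the dhs genes was not tested. Markers of intestine held 0.176 to 1.97% and those of body wall muscle 0.612 to 2.72%, so RNA of other tissues was present beside that of neurons. Wild-type replicate 2 stood apart on the first principal component, which held 46.6% of the variance. In such bulk libraries, fewer cells of a type and less RNA per cell cannot be told apart.

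Levels are given below as CPM, counts relative to the library size after TMM scaling, and as CPM per kb of coding length where genes are compared with each other. Mean levels of the dhs genes ran from 121 (dhs-25) to 0.0757 CPM per kb (dhs-26) in skn-1gf, and from 91.8 (dhs-19) to 0.192 CPM per kb (dhs-23) in wild type. There were 14 members above 10 CPM per kb in both genotypes and 15 below it in both, and none crossed that level. The order of levels in the 2 genotypes had a Spearman rho of 0.964 across the 29 members, which is a description across genes that share their libraries. The 6 highest members per kb were dhs-25, dhs-19, dhs-22, dhs-13, dhs-6 and dhs-12. They held 68.0% of the family's summed CPM in skn-1gf and 61.6% in wild type. Among these 6, the library values of each neighbouring pair in the order overlapped in both genotypes, as the plot of levels shows. Coding length leaves out the untranslated parts of exons. It is 765 bp of 2170 exon bp in dhs-12, 771 of 1307 in dhs-13 and 858 of 1648 in dhs-17. The order and the split at 10 CPM per kb therefore depend on the length used.

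**Figure D1:**
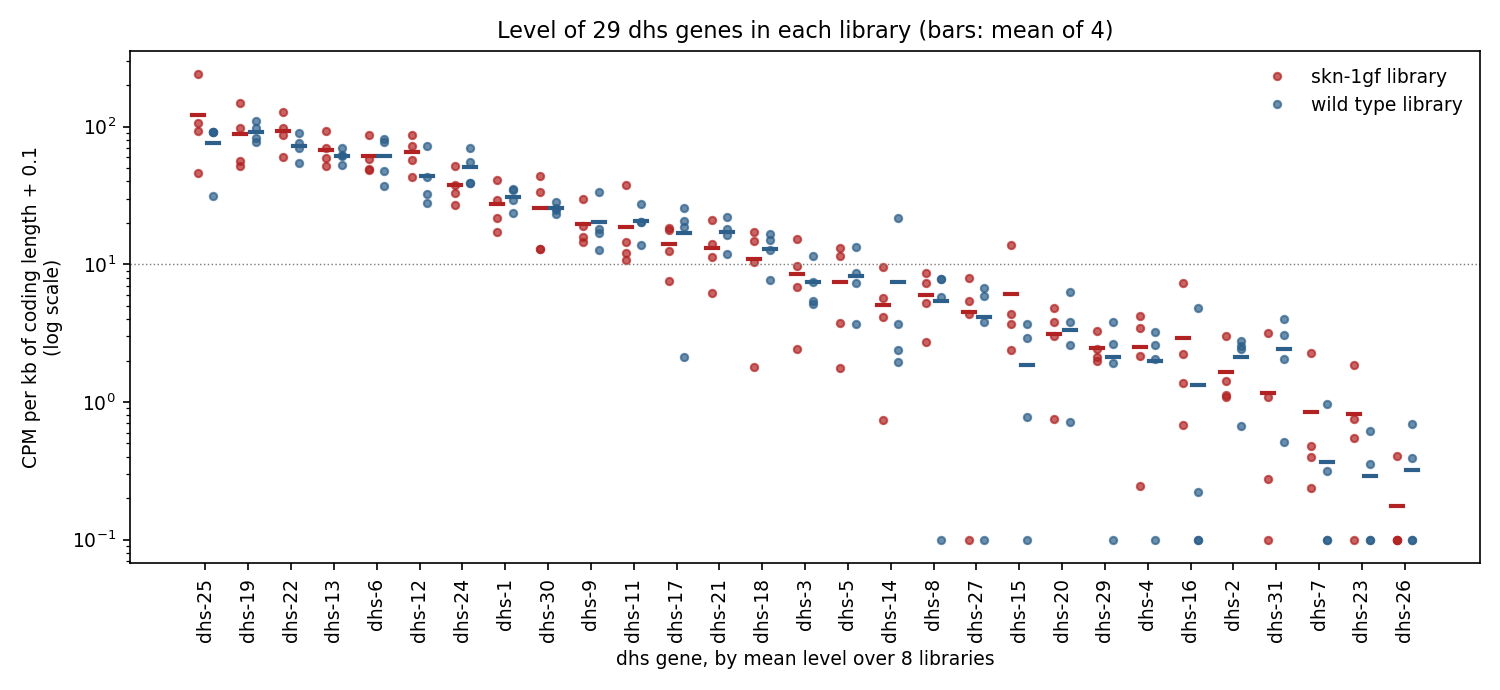
Level of each of the 29 dhs genes in every library, as CPM per kb of coding length with a small offset on a log axis; points are libraries (skn-1gf left, wild type right of each gene) and bars are means of 4. The 14 genes to the left have both means above the dotted line at 10 CPM per kb, and no gene has genotypes that separate.

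As a whole, the family took 0.0920, 0.0786, 0.0710 and 0.0625% of protein-coding counts in skn-1gf replicates 1 to 4, against 0.0855, 0.0615, 0.0803 and 0.0837% in wild-type replicates 1 to 4. The highest library was skn-1gf replicate 1, the lowest was wild-type replicate 2, and the genotypes overlapped. The mean share was 0.0760 ± 0.0125% in skn-1gf and 0.0777 ± 0.0111% in wild type (SD, n = 4 each). Summed CPM over the 29 members was 652 ± 130 in skn-1gf and 602 ± 43.6 in wild type (SD, n = 4 each).

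No member passed the test of genotype. The edgeR quasi-likelihood test with Benjamini-Hochberg adjustment over 12734 genes called 0 of the 25 tested members at an adjusted p of 0.05, and it called 0 of all genes (0.0%). Unadjusted p was under 0.05 for 0 members, where 518 genes (4.07%) of all tested lay under it. Every tested member had an adjusted p of 0.999989 in edgeR, so single members are given below with the 95% interval of their log2 fold change. DESeq2 and limma-voom, run as alternatives, likewise called 0 members. No member had 4 skn-1gf libraries all above the wild-type libraries, which 129 genes (1.01%) did, and none had all 4 below, which 147 genes (1.15%) did. Genotypes without overlap in either direction thus occurred in 0 members and in 2.17% of all tested genes.

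The direction of the differences was mixed. Of the tested members, 12 (48.0%) had a positive log2 fold change, skn-1gf minus wild type, and 13 a negative one, where 53.7% of all tested genes were positive. The median log2 fold change was −0.03 over the members and 0.04 over all tested genes. It was smaller than 0.5 in size for 20 members, between 0.5 and 1 for 3, and larger than 1 for 2, dhs-15 and dhs-31. The 95% interval lay within a log2 difference of 1 in either direction for 3 of 25 members, dhs-6, dhs-13 and dhs-19, and for 2640 (20.7%) of all tested genes. For the other tested members the interval reached past a log2 difference of 1 in at least one direction, and a difference of that size lies inside it.

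**Figure D2:**
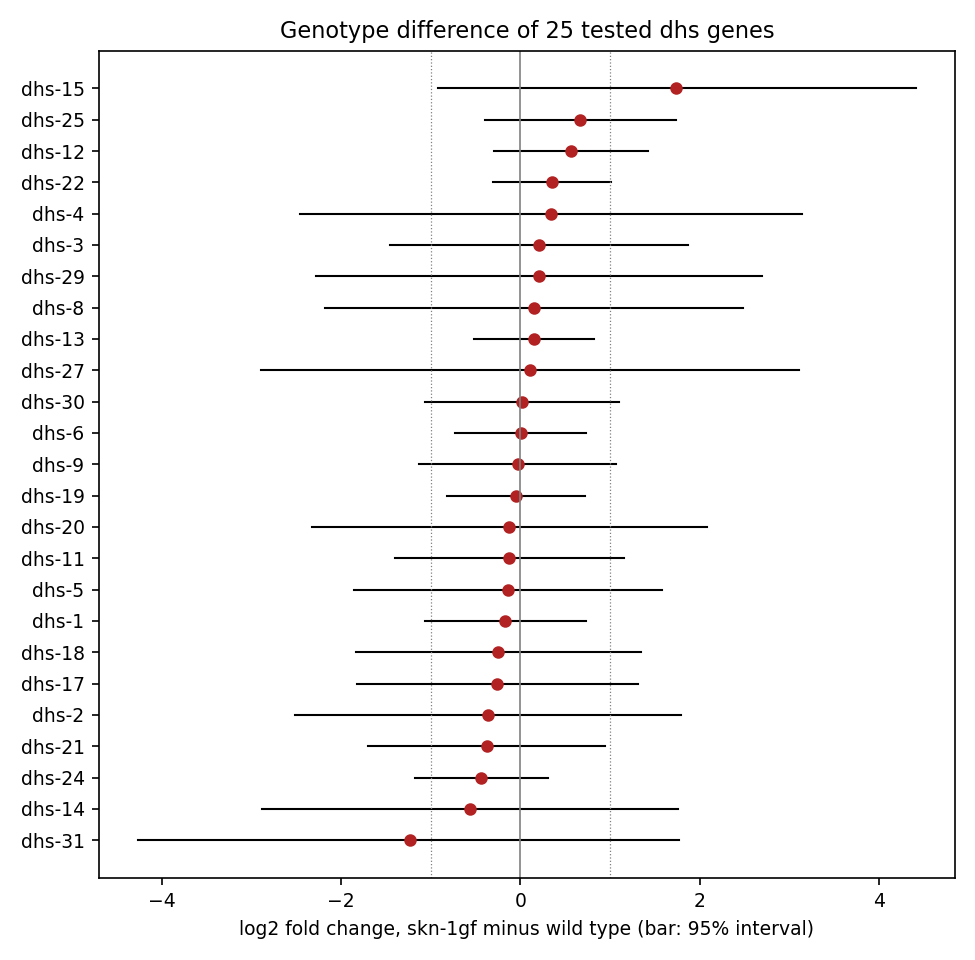
Log2 fold change (skn-1gf minus wild type) with its 95% interval for the 25 tested dhs genes, sorted by fold change; dotted lines mark differences of 1 in either direction. Every interval includes 0, and the widest belong to low genes such as dhs-27, whose interval runs from −2.89 to 3.10.

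The most abundant members come first. dhs-25 (F09E10.3) had 179, 34.3, 68.9 and 78.6 CPM in skn-1gf replicates 1 to 4, against 67.6, 68.3, 23.1 and 68.3 CPM in wild-type replicates 1 to 4. The skn-1gf values included both the highest library and one of the lowest, and wild-type replicate 3 lay below every other library. The means were 90.3 ± 62.3 CPM in skn-1gf and 56.8 ± 22.5 CPM in wild type (SD, n = 4 each), and the log2 fold change was 0.67 ± 0.49 (SE), with a 95% interval from −0.39 to 1.73. Without skn-1gf replicate 1 the log2 fold change was 0.14, and without skn-1gf replicate 2 it was 0.93.

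dhs-19 (T11F9.11) had 137, 51.7, 90.5 and 47.9 CPM in skn-1gf replicates 1 to 4, against 89.3, 76.7, 101 and 71.3 CPM in wild-type replicates 1 to 4. The wild-type libraries lay inside the range of the skn-1gf libraries. Their log2 fold change was −0.04 ± 0.35 (SE), with a 95% interval from −0.82 to 0.73.

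dhs-22 (C15H11.4) had 96.8, 128, 59.8 and 86.1 CPM in skn-1gf replicates 1 to 4, against 76.3, 54.5, 70.1 and 89.3 CPM in wild-type replicates 1 to 4. Replicates 2 of the genotypes held the highest and the lowest value, and the other libraries were mixed. Means of 92.6 ± 28.1 CPM in skn-1gf and 72.6 ± 14.4 CPM in wild type (SD, n = 4 each) gave a log2 fold change of 0.35 ± 0.30 (SE), with a 95% interval from −0.30 to 1.01. This member had the smallest biological coefficient of variation of the family, 0.355.

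dhs-13 (F36H9.3), a relative of the mammalian peroxisomal reductase DHRS4, had 39.6, 53.5, 71.2 and 45.3 CPM in skn-1gf replicates 1 to 4, against 47.0, 48.1, 40.3 and 53.4 CPM in wild-type replicates 1 to 4. One skn-1gf library was higher than all others and the rest were close together. A log2 fold change of 0.15 ± 0.31 (SE) was fitted, with a 95% interval from −0.52 to 0.82. dhs-6 (C17G10.8) averaged 76.2 ± 22.5 CPM in skn-1gf and 76.2 ± 27.6 CPM in wild type (SD, n = 4 each). Its 95% interval for the log2 fold change ran from −0.73 to 0.74.

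dhs-12 (K08F4.9) had the smallest unadjusted p of the family. It had 55.5, 66.1, 33.0 and 43.8 CPM in skn-1gf replicates 1 to 4, against 24.9, 55.3, 21.3 and 32.8 CPM in wild-type replicates 1 to 4. Each skn-1gf library was above 3 of the wild-type libraries, and wild-type replicate 2 lay among the skn-1gf libraries. The means were 49.6 ± 14.3 CPM in skn-1gf and 33.6 ± 15.3 CPM in wild type (SD, n = 4 each), a 1.48-fold difference (log2 0.57 ± 0.40 SE, 95% interval −0.30 to 1.43). Without wild-type replicate 2, and with the remaining libraries rescaled, all skn-1gf libraries lay above the wild-type libraries, as did 2.08% of the genes tested then. The log2 fold change was then 0.91, with an adjusted p of 0.999481 in edgeR, and the adjusted p ran from 0.417 to 0.999967 over the alternatives.

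dhs-12 is the next gene to gst-4, a glutathione S-transferase gene widely used as a readout of SKN-1 activity, and the annotation has the genes overlap on one strand. Exons of other protein-coding genes (gst-4 and msp-38) cover 65 of its 2170 exon bases. gst-4 had 151, 33.1, 47.3 and 76.4 CPM in skn-1gf replicates 1 to 4, against 9.26, 14.5, 10.6 and 7.61 CPM in wild-type replicates 1 to 4. The log2 ratio of gst-4 to dhs-12 was 1.44, −0.997, 0.52 and 0.80 in skn-1gf replicates 1 to 4, against −1.43, −1.93, −1.0 and −2.11 in wild-type replicates 1 to 4. The ratio was looked at after the values were seen, so it is a description with no test. The skn-1gf values lay above the wild-type values, with skn-1gf replicate 2 and wild-type replicate 3 almost equal. How far reads of one gene were counted for the other was not tested.

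dhs-24 (Y60A3A.10) leaned the other way among the higher members. It had 38.1, 59.7, 30.9 and 43.0 CPM in skn-1gf replicates 1 to 4, against 44.5, 80.3, 44.4 and 63.6 CPM in wild-type replicates 1 to 4. All skn-1gf libraries except replicate 2 lay below all wild-type libraries. The means were 42.9 ± 12.2 CPM in skn-1gf and 58.2 ± 17.3 CPM in wild type (SD, n = 4 each), with a log2 fold change of −0.44 ± 0.34 (SE) and a 95% interval from −1.18 to 0.30. Without skn-1gf replicate 2 it lay wholly below, as did 4.95% of the genes tested then.

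dhs-14 and dhs-15 stand close together on the chromosome, with the gene R05D8.9 between them. dhs-15 (R05D8.10) had 3.55, 1.89, 11.4 and 2.99 CPM in skn-1gf replicates 1 to 4, against 2.34, 0, 2.98 and 0.567 CPM in wild-type replicates 1 to 4. skn-1gf replicate 3 was far above the rest and the remaining libraries overlapped. Its log2 fold change of 1.73 ± 1.23 (SE) was the highest in the family, with a 95% interval from −0.92 to 4.41, and was 0.89 without skn-1gf replicate 3. A count of 0 in wild-type replicate 2 allows up to 0.474 CPM (3 counts, counting error only). The counts of dhs-15 were 30, 14, 39 and 8 in skn-1gf, against 22, 0, 21 and 7 in wild type. It passed the low-count filter largely through skn-1gf libraries, where it was higher, so its place as the highest is partly set by the filter. dhs-14 (R05D8.8) had 7.93, 0.540, 4.67 and 3.37 CPM in skn-1gf replicates 1 to 4, against 1.92, 18.02, 1.56 and 3.00 CPM in wild-type replicates 1 to 4. The highest value was in wild-type replicate 2 and the lowest in skn-1gf replicate 2. Its log2 fold change was −0.56 ± 1.07 (SE), with a 95% interval from −2.88 to 1.76, but 0.89 without wild-type replicate 2.

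dhs-31 (T04B2.6) had the lowest fold change and some of the lowest levels. It had 0, 0.135, 2.33 and 0.749 CPM in skn-1gf replicates 1 to 4, against 1.49, 0.316, 2.27 and 3.00 CPM in wild-type replicates 1 to 4. Low values occurred in both genotypes and skn-1gf replicate 3 was among the highest. Its log2 fold change was −1.23 ± 1.39 (SE), with a 95% interval from −4.26 to 1.77. Leaving out one library at a time gave a lowest value of −2.81 when skn-1gf replicate 3 was omitted and a highest of −0.76 when skn-1gf replicate 1 was omitted. The counts of dhs-31 were 0, 1, 8 and 2 in skn-1gf, against 14, 2, 16 and 37 in wild type. It passed the low-count filter mostly through wild-type libraries, where it was higher, so its place as the lowest is partly set by the filter.

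Members with a known role are next. dhs-3 (T02E1.5), a protein of intestinal lipid droplets, had 6.27, 2.16, 14.01 and 8.98 CPM in skn-1gf replicates 1 to 4, against 6.81, 10.6, 4.68 and 4.94 CPM in wild-type replicates 1 to 4. skn-1gf libraries held both the highest and the lowest value. Its log2 fold change was 0.21 ± 0.76 (SE), with a 95% interval from −1.45 to 1.87. Exons of opposite-strand genes overlap its own over 49 bp. dhs-21 (R11D1.11), an L-xylulose reductase that also acts on dicarbonyls, had 15.9, 4.59, 8.46 and 10.5 CPM in skn-1gf replicates 1 to 4, against 13.6, 12.2, 8.80 and 16.5 CPM in wild-type replicates 1 to 4. The lowest value was in skn-1gf replicate 2 and the others were mixed. The log2 fold change was −0.38 ± 0.61 (SE), with a 95% interval from −1.69 to 0.94.

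dhs-8 (K10H10.3) has been described in earlier work as responsive to SKN-1. It had 9.70, 2.97, 5.84 and 8.23 CPM in skn-1gf replicates 1 to 4, against 8.72, 0, 8.80 and 6.48 CPM in wild-type replicates 1 to 4. Apart from the 0 in wild-type replicate 2, the values of the genotypes were mixed. A log2 fold change of 0.15 ± 1.07 (SE) resulted, with a 95% interval from −2.18 to 2.48, and was −0.29 without wild-type replicate 2.

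dhs-16 (C10F3.2), a steroid dehydrogenase in the synthesis of dafachronic acids, the ligands of the nuclear receptor DAF-12, did not pass the low-count filter. It had 21, 5, 29 and 4 counts in skn-1gf replicates 1 to 4, against 0, 35, 1 and 0 counts in wild-type replicates 1 to 4. Every skn-1gf library had some counts, and nearly all wild-type counts were in replicate 2. In scaled units it was at 2.48, 0.675, 8.46 and 1.50 CPM in skn-1gf, against 0, 5.53, 0.142 and 0 CPM in wild type. Its mean over all 8 libraries, 2.02 CPM per kb, was above that of the tested dhs-31 (1.69 CPM per kb). The other untested members had fewer counts. dhs-7 had 18, 1, 1 and 1 counts in skn-1gf, against 2, 0, 6 and 0 counts in wild type. dhs-23 had 0, 4, 5 and 1 counts in skn-1gf, against 2, 0, 3 and 0 counts in wild type. dhs-26 had 0, 0, 1 and 0 counts in skn-1gf, against 0, 0, 2 and 7 counts in wild type, the fewest of the family.

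The remaining tested members, given by their mean level, fall into a middle and a low group. The middle group was dhs-1, dhs-30, dhs-9, dhs-11, dhs-17 and dhs-18, whose log2 fold changes ran from −0.26 (dhs-17) to 0.02 (dhs-30). dhs-1 averaged 26.3 ± 10.1 CPM in skn-1gf and 29.7 ± 5.39 CPM in wild type (SD, n = 4 each). dhs-30 averaged 23.9 ± 14.4 CPM in skn-1gf and 23.7 ± 2.11 CPM in wild type (SD, n = 4 each), so that its skn-1gf libraries were much the more scattered. dhs-9 had 18.8 ± 6.64 CPM in skn-1gf and 19.2 ± 8.66 CPM in wild type, and dhs-11 had 13.6 ± 9.25 CPM in skn-1gf and 14.9 ± 4.05 CPM in wild type (SD, n = 4 each). dhs-17 had 15.03, 10.7, 15.8 and 6.36 CPM in skn-1gf replicates 1 to 4, against 15.96, 1.74, 22.004 and 17.6 CPM in wild-type replicates 1 to 4. Its wild-type libraries other than replicate 2 were above all skn-1gf libraries. dhs-18 had 9.58 ± 5.95 CPM in skn-1gf and 11.4 ± 3.47 CPM in wild type (SD, n = 4 each).

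The low group was dhs-5, dhs-27, dhs-20, dhs-29, dhs-4 and dhs-2. dhs-5 had 8.38 ± 6.32 CPM in skn-1gf and 9.23 ± 4.53 CPM in wild type (SD, n = 4 each). dhs-29 was at 3.03 ± 0.743 CPM in skn-1gf and 2.60 ± 2.00 CPM in wild type (SD, n = 4 each). Its 0 in wild-type replicate 2 was the lowest value. dhs-27 had 0, 5.13, 7.59 and 4.12 CPM in skn-1gf replicates 1 to 4, against 6.38, 0, 5.54 and 3.56 CPM in wild-type replicates 1 to 4, one library at 0 in each genotype. dhs-2 averaged 1.71 ± 1.00 CPM in skn-1gf and 2.22 ± 1.07 CPM in wild type (SD, n = 4 each), dhs-4 averaged 2.22 ± 1.60 CPM in skn-1gf and 1.73 ± 1.24 CPM in wild type, and dhs-20 averaged 3.08 ± 1.77 CPM in skn-1gf and 3.34 ± 2.41 CPM in wild type. Log2 fold changes in this group ran from −0.36 (dhs-2) to 0.34 (dhs-4).

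Spread between libraries of one genotype differed among members. The biological coefficient of variation, the replicate spread that edgeR estimates beyond counting noise, had a median of 0.718 over the tested members and 0.661 over all tested genes. It was under 0.4 for dhs-22 (0.355), dhs-13 (0.369), dhs-6 (0.385), dhs-24 (0.394) and dhs-19 (0.397), all of them abundant genes. It was over 0.8 for 9 members, up to 1.26 for dhs-27, all of them below 10 CPM per kb. There were 19 members with a count in every library and 10 with a 0 somewhere.

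Part of the variation followed single libraries. In wild-type replicate 2, 8 of the 29 members had 0 counts (dhs-4, dhs-7, dhs-8, dhs-15, dhs-23, dhs-26, dhs-27 and dhs-29) at a depth of 9652874 gene counts. Ribosomal RNA took 32.8% of those counts, beside 6.90 to 21.8% in the other libraries, and protein-coding genes 63.0%. It had 11909 genes with a count, beside 14248 to 20394 in the others, and the part of these differences in the zeros was not tested. It held the lowest of 8 values for 10 tested members and the highest for dhs-5, dhs-14 and dhs-24. The share of all tested genes that were lowest or highest in it was not counted. skn-1gf replicate 2 held the lowest value for dhs-3, dhs-5, dhs-14, dhs-18, dhs-21 and dhs-30. It held the highest for dhs-1, dhs-6, dhs-11, dhs-12 and dhs-22. skn-1gf replicate 1 was highest for dhs-2, dhs-8, dhs-18, dhs-19, dhs-25 and dhs-30, and skn-1gf replicate 3 for dhs-3, dhs-4, dhs-13, dhs-15 and dhs-27. The median deviation of members from their own mean was 0.57, −0.55, 0.45 and −0.01 (log2) in skn-1gf replicates 1 to 4, against 0.18, −0.04, 0.35 and 0.16 in wild-type replicates 1 to 4. Over all tested genes it was 0.11, 0.002, 0.08 and 0.08 in skn-1gf replicates 1 to 4, against 0.12, −0.13, 0.05 and 0.13 in wild-type replicates 1 to 4.

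Tissue markers moved with these libraries. The 10 intestinal markers summed to 17742, 1415, 15958 and 16625 CPM in skn-1gf replicates 1 to 4, against 6394, 15619, 3720 and 5277 CPM in wild-type replicates 1 to 4. skn-1gf replicate 2 was far below the other skn-1gf libraries and wild-type replicate 2 far above the other wild-type libraries, and most of the sum came from the vitellogenins vit-2 and vit-6. Of the defining markers, elt-7 was at 0 in wild-type replicates 2 and 4. elt-2 was at 0.158 CPM in wild-type replicate 2, against 3.09, 3.55 and 4.70 CPM in wild-type replicates 1, 3 and 4. ifb-2 was at 39.0 CPM in wild-type replicate 2, below wild-type replicates 1 and 3. The remaining intestinal markers had their highest wild-type value in replicate 2. The 8 pan-neuronal markers summed to 1057, 182, 963 and 470 CPM in skn-1gf replicates 1 to 4, against 404, 320, 1179 and 267 CPM in wild-type replicates 1 to 4. The 7 germline markers summed to 2709, 4622, 3395 and 3659 CPM in skn-1gf, against 3274, 4805, 3019 and 3883 CPM in wild type, with the libraries numbered 2 highest in each genotype. Of the 8 libraries, skn-1gf replicate 2 was also lowest for the summed markers of body wall muscle (4914 CPM), pharynx (45.9 CPM), hypodermis (56.9 CPM) and ASI (10.8 CPM), and highest for those of coelomocytes (332 CPM). The 6 dhs genes that were lowest in skn-1gf replicate 2 were thus lowest where the sums of several tissues were lowest, and the part of tissue mixture in their values was not tested.

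**Figure D3:**
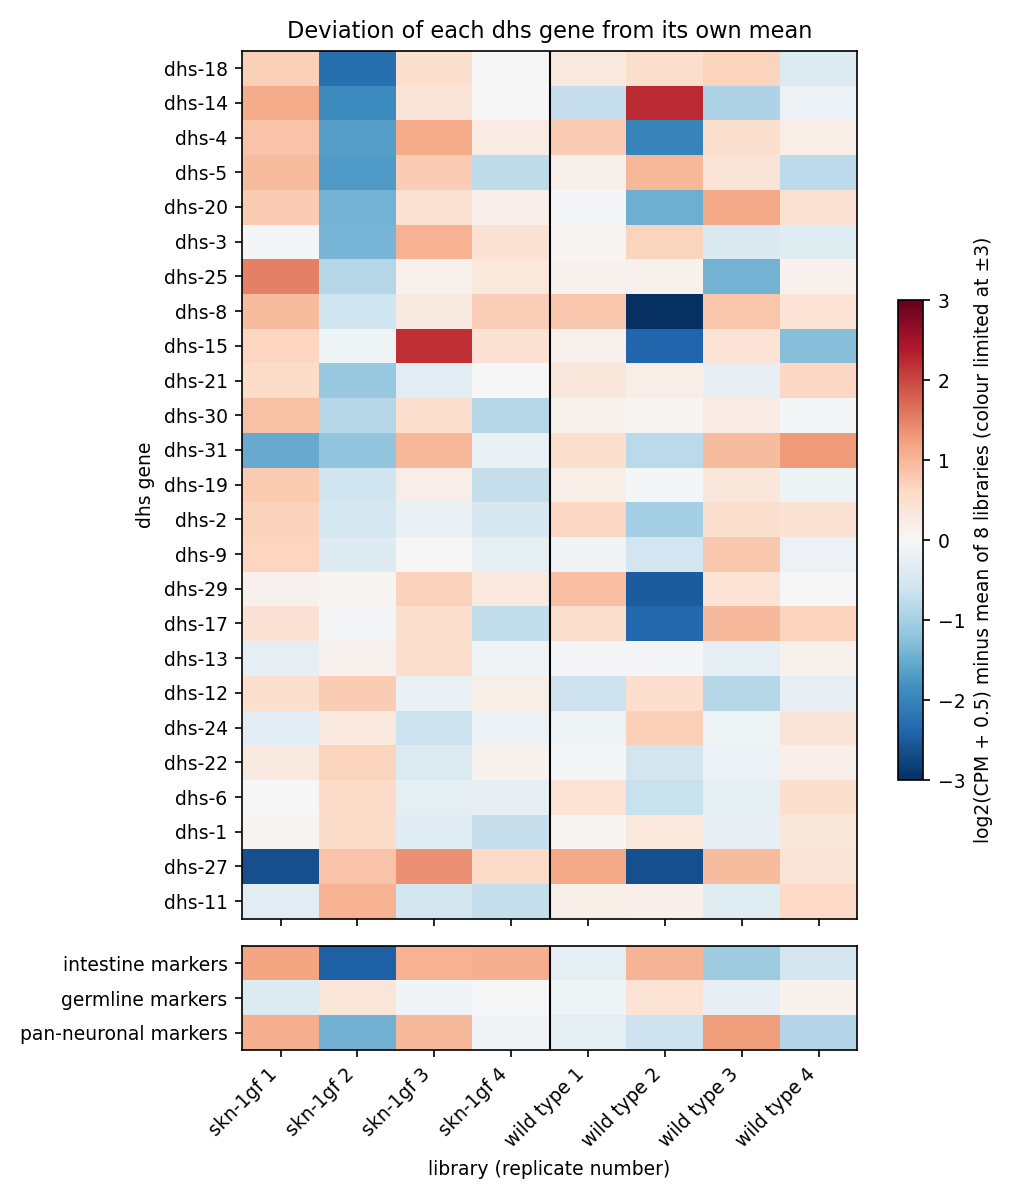
Log2 deviation of each tested dhs gene from its own mean over 8 libraries (upper panel) and the same for summed intestinal, germline and pan-neuronal markers (lower panel); columns are skn-1gf replicates 1 to 4 and then wild-type replicates 1 to 4, and genes are sorted by their value in skn-1gf replicate 2 relative to the other skn-1gf libraries. Many of the strongest colours sit in skn-1gf replicate 2 and wild-type replicate 2, and no block of genes separates the genotypes.

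The libraries numbered 2, which held many of the extreme values above, were left out together to see what this did to the family. skn-1gf replicate 2 had the lowest share of ribosomal RNA (6.90%) and the highest of protein-coding genes (91.2%). Leaving it out is therefore no correction for quality by these measures. Without both libraries numbered 2, and with the remaining libraries rescaled, dhs-14 and dhs-15 had all skn-1gf libraries above all wild-type libraries, as did 8.89% of the genes tested then. dhs-17 and dhs-24 had all below, as did 10.4%. At the scaling of all 8 libraries, used for the CPM values printed above, dhs-12 and dhs-25 also lay wholly above. After rescaling, the closest libraries of dhs-12 were skn-1gf replicate 3 at 34.46 CPM and wild-type replicate 4 at 34.56 CPM, so its separation rests on the scaling. With 3 libraries against 3, no member passed the edgeR test with Benjamini-Hochberg adjustment, and the smallest adjusted p of a member was 0.417. The median log2 fold change of the tested members was then −0.01.

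Related genes were read from the same fit. These lists were written with earlier results of the data known, so they are given as descriptions, and 0 genes of each passed the adjusted edgeR test. Of 16 other short-chain dehydrogenases, 10 were tested. Their log2 fold changes were positive in 5 and negative in 5, and the median was −0.02, beside −0.03 in the dhs genes. The number positive was 3 without skn-1gf replicate 3 and 6 without wild-type replicate 4. Unadjusted edgeR p was under 0.05 for 2 of them, both for 2,4-dienoyl-CoA reductases, enzymes that help break down unsaturated fatty acids. decr-1.3 had 0, 1.89, 0 and 1.50 CPM in skn-1gf replicates 1 to 4, against 5.64, 16.1, 1.28 and 14.7 CPM in wild-type replicates 1 to 4. Its counts were 0, 14, 0 and 4 in skn-1gf, against 53, 102, 9 and 181 in wild type. It passed the low-count filter largely through wild-type libraries, where it was high, so its place among these 2 is partly set by the filter. decr-1.2 had 1.66, 2.16, 0 and 3.37 CPM in skn-1gf replicates 1 to 4, against 4.36, 31.6, 1.56 and 16.7 CPM in wild-type replicates 1 to 4. Wild-type replicates 2 and 4 were high for both, and wild-type replicate 3 overlapped with skn-1gf. The 6 sperm markers moved with them, summing to 102, 84.3, 11.96 and 161 CPM in skn-1gf replicates 1 to 4, against 132, 766, 55.4 and 354 CPM in wild-type replicates 1 to 4. The log2 fold change was below 0 for all 5 sperm markers tested (median −1.83), and the part of sperm RNA in the decr values was not tested. Without wild-type replicate 4, neither decr gene had an unadjusted p under 0.05. Log2 fold changes were −3.46 ± 1.36 (SE) for decr-1.3 and −2.91 ± 1.15 (SE) for decr-1.2. The 95% intervals ran from −6.45 to −0.53 for decr-1.3 and from −5.43 to −0.42 for decr-1.2, and the adjusted p was 0.999989 in edgeR for both. The related decr-1.1 did not share this lean. It was at 37.9 ± 16.7 CPM in skn-1gf and 35.8 ± 7.51 CPM in wild type (SD, n = 4 each), with a log2 fold change of 0.08 ± 0.41 (SE). gale-1, the UDP-galactose epimerase gene, was at 77.5 ± 19.1 CPM in skn-1gf and 51.9 ± 18.2 CPM in wild type (SD, n = 4 each). The steroid dehydrogenase relative stdh-1 was at 13.1 ± 2.36 CPM in skn-1gf and 16.4 ± 1.34 CPM in wild type (SD, n = 4 each), with all skn-1gf libraries below all wild-type libraries and a log2 fold change of −0.32 ± 0.49 (SE).

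Of 9 genes of dafachronic acid and sterol handling, the pathway of dhs-16, 6 were tested, 3 positive and 3 negative, with a median log2 fold change of 0.01. Leaving out wild-type replicate 4 left 1 positive gene, and leaving out skn-1gf replicate 2 gave 5. The synthesis enzymes daf-9, daf-36 and hsd-1 did not pass the low-count filter, and neither did dhs-16. The 4 with the smallest p were ncr-1, a Niemann-Pick type C sterol transporter (0.47 ± 0.57 SE), din-1, a DAF-12 corepressor (0.19 ± 0.39 SE), emb-8, a cytochrome P450 reductase (−0.13 ± 0.28 SE), and ncr-2 (−0.19 ± 0.83 SE). All 8 lipid droplet genes, the setting of dhs-3, were tested, 7 positive and 1 negative, with a median log2 fold change of 0.05, but 4 were positive without skn-1gf replicate 1. The perilipin gene plin-1 was at 410 ± 40.7 CPM in skn-1gf and 409 ± 66.5 CPM in wild type (SD, n = 4 each). The lipase gene atgl-1 was at 116 ± 7.93 CPM in skn-1gf and 129 ± 30.4 CPM in wild type (SD, n = 4 each). The log2 fold change was 0.18 ± 0.46 (SE) for hosl-1 and 0.15 ± 0.43 (SE) for seip-1.

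The 12 SKN-1 detoxification genes, mostly glutathione S-transferases, lay differently from the dhs genes in the same libraries. All 11 that were tested had a positive log2 fold change, with a median of 1.11, and 7 had an unadjusted edgeR p under 0.05. Counts in wild-type replicates 1 to 4 were 28, 0, 7 and 26 for gst-30 and 4, 0, 4 and 15 for gst-14. Both passed the low-count filter largely through skn-1gf libraries, where they were high, so their place among the positive genes is partly set by the filter. The list summed to 1018, 284, 392 and 363 CPM in skn-1gf replicates 1 to 4, against 192, 222, 217 and 239 CPM in wild-type replicates 1 to 4, far highest in skn-1gf replicate 1. Without that library 7 of 10 tested genes were positive, nit-1, ugt-11 and ugt-13 were negative, the median was 0.55, and 3 had an unadjusted p under 0.05. Sets of tissue markers leaned in different directions. Positive log2 fold changes were found in 6 of 9 tested markers of intestine (median 0.74), 5 of 5 of ASI (median 2.15) and 3 of 3 of coelomocytes (median 0.64). They were found in 4 of 5 of pharynx, 3 of 5 of body wall muscle and 1 of 1 of glia. Pan-neuronal markers had 4 of 8 positive and germline markers 3 of 7. Markers of hypodermis (median −0.84) and sperm (median −1.83) had 0 of 5 positive each. ASI markers that were not tested included str-3, whose only counts were 39 in wild-type replicate 2. Among skn-1gf libraries, the list and the intestinal and ASI sums were lowest in replicate 2, where the coelomocyte sum was highest (332 CPM). The intestinal sum was 17742, 15958 and 16625 CPM in skn-1gf replicates 1, 3 and 4 and 15619 CPM in wild-type replicate 2, without the list's peak in skn-1gf replicate 1. The part of these markers in the list's values was not tested. The smallest p values were those of gst-4 (2.87 ± 0.50 SE), gst-30 (4.14 ± 1.14 SE), gst-7 (1.11 ± 0.38 SE) and gst-5 (1.69 ± 0.58 SE). The dhs genes had 12 of 25 positive and none with p under 0.05. The difference between the lists was not tested, and no gene of either list passed the adjusted threshold.

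**Figure D4:**
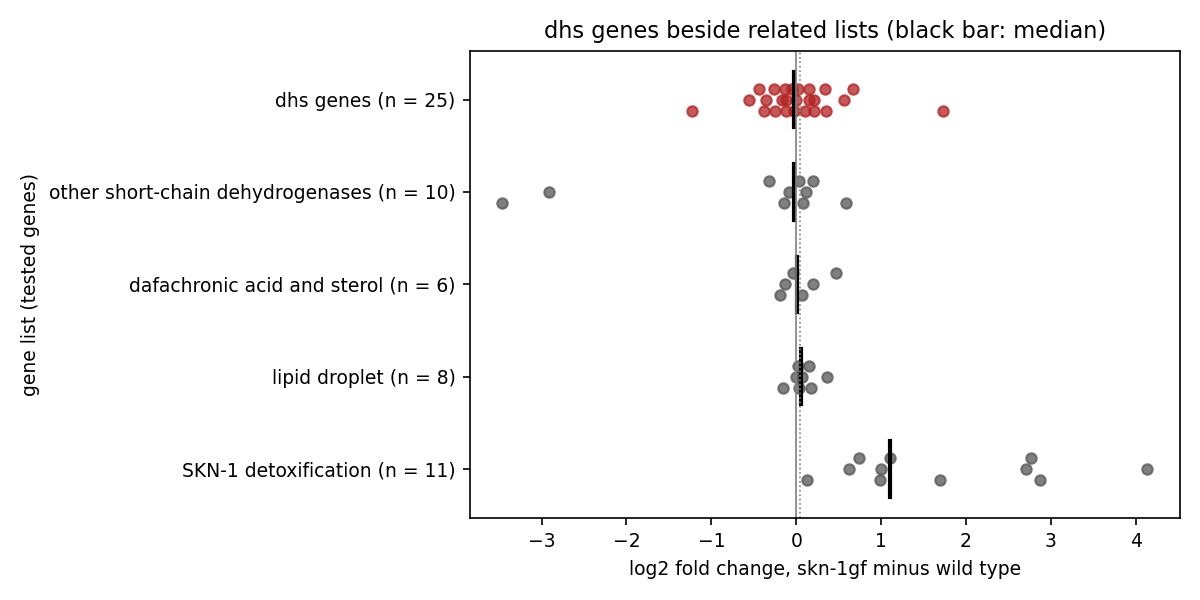
Log2 fold change (skn-1gf minus wild type) of each tested gene in the dhs family and in 4 related lists, with black bars at the medians and a dotted line at the median of all tested genes. The dhs genes centre on −0.03 and spread from −1.23 to 1.73, and the SKN-1 detoxification genes all lie above 0 with a median of 1.11, which was 0.55 with 7 of 10 above 0 when skn-1gf replicate 1 was left out.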

How the data were processed

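RNA of sorted cells was measured in 8 libraries, 4 of skn-1gf and 4 of wild type, grouped by title and genotype label. The authors deposited whole-number counts of reads for each gene, which were used unchanged. The submitters' processing notes list the build ce10 and the tools R 3.5.2, DESeq2, HTSeq 2.0.2 and STAR 2.7.6a. How the counting treated strand is not given in the sources used here, so reads of opposite-strand overlaps cannot be told apart. The exons of 13 members overlap exons of another protein-coding gene by 2 to 147 bp, and those of 16 do not. The Ovation SoLo kit was used on total RNA, per the labels' protocols. The protocol of extraction mentions homogenised animals, so the step from sort to RNA is described only in part. Multiply aligned reads, 12.3 to 30.3% of all counted reads, were not assigned to genes, and reads with no feature or ambiguous ones stayed out of library sizes and tests.

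Of 46928 gene rows, 46919 could be given a symbol from their locus tag through RefSeq's table for WBcel235. Coding lengths and gene overlaps came from the Ensembl annotation of that assembly, and no coordinates are printed because its build carries another name than that of the counts. The test of genotype was that of edgeR 4.0.16, run under R 4.3.3 (glmQLFit, glmQLFTest, TMM scaling, filterByExpr with a minimum count of 10 and a minimum total of 15) on genotype alone. Benjamini-Hochberg adjustment ran over all 12734 genes that passed. CPM values are counts relative to the TMM-scaled library size, log2 CPM used a prior count of 2, and SEs and 95% intervals came from the same model. Alternatives were DESeq2 1.42.0, limma-voom (limma 3.58.1), other scalings, other filters, protein-coding genes only, the replicate number as a block, and libraries left out, with scaling and filter redone on those kept. Leaving libraries out of the related lists was chosen after seeing the data. The test was checked on simulated data.

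The members and the gene lists were chosen with earlier results of these data known. Values in every library are given for the 6 members with the smallest p, the 4 highest per kb, members with no overlap, and dhs-3, dhs-8, dhs-13, dhs-16 and dhs-21. From other lists up to 4 members with the smallest p are named. Members that were not tested are given by their counts. The values of dhs-14, dhs-17 and dhs-27 in every library and those of plin-1 were added after they were seen.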

Additional observations from a re-analysis of the deposited data

Results flagged for a closer look

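Within each genotype, the 4 log2 CPM values of every tested member were searched for one library far from the other 3, using Dixon's 95% limit. Of 50 groups, 4 were picked out, where chance picks out about 1 in 20 groups, or 2.5 here. All 4 were low values in a wild-type library, and 3 of them were in wild-type replicate 2. dhs-8 was at −1.835 in that library, from 0 CPM, where the other wild-type libraries lay between 2.76 and 3.18 (6.48 to 8.80 CPM). dhs-17 was at 1.014 (1.74 CPM), where the others lay between 4.02 and 4.48 (15.96 to 22.004 CPM). dhs-2 was at −0.132 (0.632 CPM), where the others lay between 1.52 and 1.70. dhs-25 was at 4.55 (23.1 CPM) in wild-type replicate 3, where the others lay between 6.08 and 6.10 (67.6 to 68.3 CPM). Without wild-type replicate 2 the log2 fold change was −0.29 for dhs-8, −0.66 for dhs-17 and −0.69 for dhs-2. Without wild-type replicate 3 it was 0.41 for dhs-25.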

How the results depend on the processing

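No dhs gene passed the adjusted threshold in any of the 18 alternatives, and the smallest adjusted p of a member was 0.417. Over all genes, DESeq2 called 3 higher and 3 lower in skn-1gf, and edgeR with no low-count filter called 51 higher and 108 lower, none of them a dhs gene. The median log2 fold change of members ran from −0.15 to 0.12 with one library left out. Total-count scaling set the median of all genes to −0.12 and that of the members to −0.23. Of 449 recomputed member fold changes, 384 kept their sign and 65 changed it, in 17 members, and the causes were not tested. Separation was counted after rescaling the libraries that were kept. With one library left out, members with all skn-1gf libraries above wild type numbered 0 to 1 (dhs-12 without wild-type replicate 2, dhs-15 without skn-1gf replicate 2, dhs-22 without skn-1gf replicate 3, which overlaps at the scaling of all 8 libraries, where dhs-25 separates without skn-1gf replicate 2), and members with all below 0 to 1 (dhs-17 without wild-type replicate 2, dhs-24 without skn-1gf replicate 2). Without both libraries numbered 2, there were 2 above and 2 below.

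Log2 fold changes that changed sign were as follows. For dhs-6 they were −0.0049 with DESeq2, −0.0053 with RLE scaling, −0.033 with upper-quartile scaling, −0.17 with total counts, −0.011 with no filter and −0.41 without both libraries numbered 2. With limma-voom, dhs-27 was at −0.58, dhs-17 at 0.034, dhs-3 at −0.14, dhs-30 at −0.076 and dhs-9 at 0.11. With total counts, dhs-27 was at −0.18, dhs-29 at −0.12, dhs-8 at −0.23, dhs-4 at −0.048 and dhs-30 at −0.19. With no filter dhs-30 was at −0.026. Without both libraries numbered 2, dhs-27 was at −0.45, dhs-18 at 0.19, dhs-29 at −0.12, dhs-5 at 0.54, dhs-8 at −0.014, dhs-14 at 1.296 and dhs-19 at 0.076.

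With one library left out, log2 fold changes ran from −0.45 to 0.021 (dhs-1), −0.32 to 0.53 (dhs-27), −0.24 to 0.18 (dhs-6), −0.54 to 0.11 (dhs-18), −0.22 to 0.68 (dhs-29), −0.66 to 0.019 (dhs-17), −0.51 to 0.38 (dhs-20), −0.0036 to 0.30 (dhs-13), −0.53 to 0.19 (dhs-5), −0.29 to 0.39 (dhs-8), −1.04 to 0.89 (dhs-14), −0.20 to 0.52 (dhs-3), −0.11 to 0.73 (dhs-4), −0.40 to 0.11 (dhs-19), −0.35 to 0.23 (dhs-30), −0.29 to 0.32 (dhs-9) and −0.73 to 0.10 (dhs-11). The sign was kept in dhs-31 (−2.81 to −0.76), dhs-2 (−0.85 to −0.19), dhs-21 (−0.67 to −0.15), dhs-24 (−0.65 to −0.24), dhs-22 (0.15 to 0.53), dhs-25 (0.14 to 0.93), dhs-12 (0.39 to 0.91) and dhs-15 (0.89 to 2.31).

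Replicate numbers recur in both genotypes, but the notes of the series name no block, so the numbers were not taken to pair the libraries. Deviations of same-numbered libraries correlated at −0.01, 0.06, 0.51 and 0.06. The value for the libraries numbered 3 was the highest of any skn-1gf and wild-type pair, and whether libraries were paired was not tested. With the replicate number as a block, edgeR called 0 genes, the member median was 0.025, and dhs-17 was at 0.042, dhs-14 at 0.21, dhs-30 at −0.19 and dhs-9 at 0.0091.

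Depth and spread limit the low members most. Genes near 1 CPM rest on a few counts in the shallow skn-1gf libraries, and intervals there span several log2 units.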
